A study of Caenorhabditis elegans with 6 samples.

Results

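Guanylyl cyclases make the second messenger cyclic GMP (cGMP) from GTP, and the nematode Caenorhabditis elegans has an unusually large family of them. The genes described here are those of the deposited table whose name is gcy- followed by a number, together with odr-1 and daf-11, which encode enzymes of the same family. There were 34 such genes among 45292 listed genes, 7 of the soluble kind (gcy-31 to gcy-37) and 27 of the receptor kind. They lie on chromosomes I (3 genes), II (10), IV (6), V (10) and X (5). Of the 34, 14 had enough counts to be tested, 6 soluble and 8 receptor-type, and the other 20 are given by their counts.

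Receptor-type guanylyl cyclases span the membrane and mostly sit in the cilia of sensory neurons, where each type of neuron carries its own set. The soluble kind binds a haem group, and its best studied members sense oxygen. The cGMP opens the channel made of TAX-2 and TAX-4 and activates the kinase EGL-4, and phosphodiesterases break it down. In this way worms smell, taste salt, and follow temperature, oxygen and carbon dioxide.

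Whole-worm RNA was sequenced after X-rays from a linear accelerator at 0, 200 or 400 Gy (gray, a measure of absorbed dose), with 2 libraries per dose. All worms were age-synchronized hermaphrodites irradiated as young adults, 24 h after the last larval stage. About 1000 worms were irradiated. Not given in the sources used here are whether this number is per dose, the strain, and the time between irradiation and harvest. Worms at 0 Gy are the unirradiated group. Nothing in the labels says whether same-dose libraries are from separate cultures, so each p-value reflects only how far these libraries spread, and that spread may be technical. Since each library holds whole worms, fewer cells of a type and less RNA per cell cannot be told apart.

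The libraries held 9554479 to 12315765 gene counts. Levels are given as CPM (counts relative to the library's total, with totals scaled by TMM, a trimmed mean of log ratios), and RPKM, which also divides by coding length, is used where levels of different genes are compared. Differences were tested by edgeR's quasi-likelihood test over all 14417 genes with enough counts, and a gene is said to have changed at a Benjamini-Hochberg adjusted p under 0.05. Log2 fold changes carry their standard error (SE). Long genes as a whole shifted with dose in these libraries, and guanylyl cyclase genes are long. Their deposited lengths, called coding lengths here, run from 2028 to 5482 bases, with a median of 3277.5 bases. Among the 1442 tested genes with the longest coding sequences (median 3495 bases), the median log2 fold change was -1.32 for 200 Gy against 0 Gy, 0.95 for 400 Gy against 0 Gy, and 2.30 for 400 Gy against 200 Gy. A second fit removed this length trend from each library, and its values are called length-corrected below. The study itself named this gene family from these libraries, so the family's direction is not independent evidence.

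The family as a whole was low in these libraries. Its 34 genes together took 1765 and 2430 counts at 0 Gy, 414 and 550 counts at 200 Gy, and 3757 and 3211 counts at 400 Gy. In scaled units these sums were 144.5 and 197.6 CPM at 0 Gy, 57.7 and 53.0 CPM at 200 Gy, and 329 and 292 CPM at 400 Gy. The 3 doses did not overlap, with 200 Gy lowest and 400 Gy highest. The number of family members with any count was 23 and 25 in the 0 Gy libraries, 20 and 22 in the 200 Gy libraries, and 30 and 32 in the 400 Gy libraries. A pair of genes, gcy-12 and gcy-28, held 77.3% to 91.4% of the family's counts in each library, so the family total is mainly theirs.

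The order of levels per length is led by gcy-28 and gcy-12 at every dose. At 0 Gy, gcy-28 averaged 21.9 ± 4.26 RPKM and gcy-12 9.95 ± 2.90 RPKM (SD, n = 2 libraries). The next 4 at 0 Gy were all soluble. These were gcy-35 at 3.98 ± 2.23 RPKM, gcy-37 at 3.03 ± 0.599 RPKM, gcy-36 at 2.62 ± 0.856 RPKM and gcy-32 at 2.36 ± 1.59 RPKM (SD, n = 2), and neighbours among them lie within each other's spread. At 400 Gy, gcy-28 averaged 37.7 ± 2.29 RPKM and gcy-12 13 ± 0.644 RPKM, followed by gcy-35 at 1.43 ± 0.0203 RPKM, gcy-11 at 1.30 ± 0.0585 RPKM and gcy-22 at 0.789 ± 0.212 RPKM (SD, n = 2). The receptor-type gcy-11 and gcy-22 thus stood above gcy-36 and gcy-32 at 400 Gy, which averaged 0.341 ± 0.0273 and 0.337 ± 0.027 RPKM (SD, n = 2). The soluble gcy-37, at 0.776 ± 0.0179 RPKM (SD, n = 2), lay within the spread of gcy-22. The change of order between doses also carries the length trend. The lengths of gcy-11 and gcy-22 are 3618 and 3177 bases, and those of gcy-36 and gcy-32 are 2028 and 2055 bases.

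**Figure D1:**
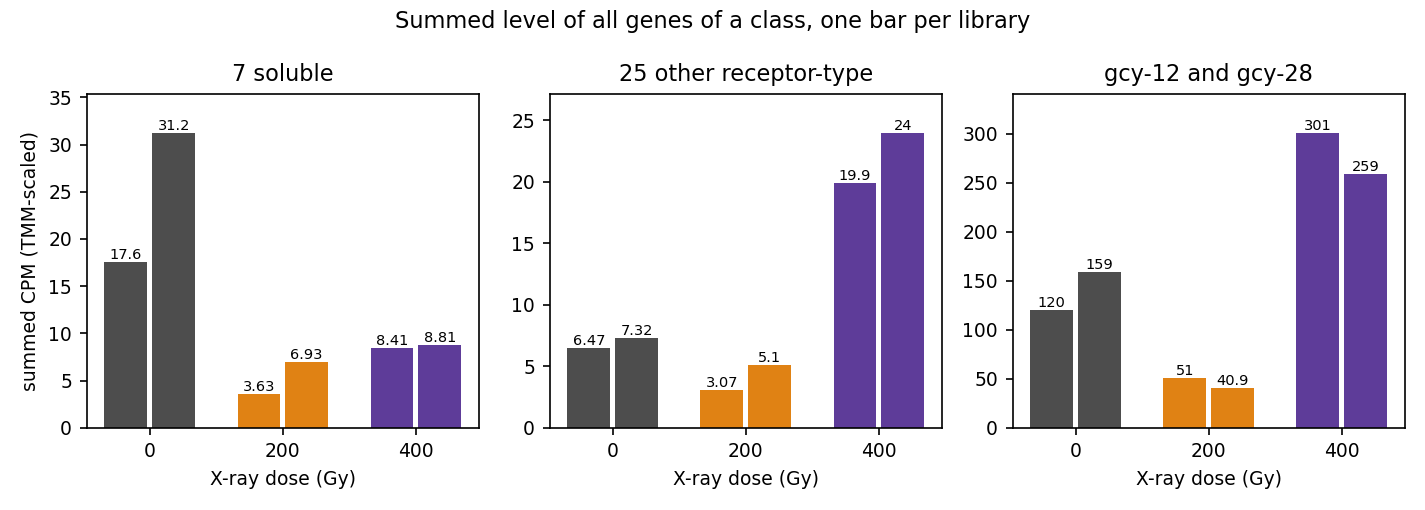
Summed CPM of the 7 soluble genes, of the 25 receptor-type genes other than gcy-12 and gcy-28, and of gcy-12 with gcy-28 (vertical axes, from 0), with 1 bar per library and the X-ray dose in Gy along the horizontal axis. The soluble sum is highest at 0 Gy (17.6 and 31.2 CPM), while both receptor-type sums are highest at 400 Gy (19.9 and 24.0 CPM, and 301 and 259 CPM).

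The soluble and the receptor-type genes took different courses over the doses. The 7 soluble genes summed to 17.6 and 31.2 CPM at 0 Gy, 3.63 and 6.93 CPM at 200 Gy, and 8.41 and 8.81 CPM at 400 Gy. Their sums at 200 and at 400 Gy all lay below both libraries at 0 Gy. The 25 receptor-type genes other than gcy-12 and gcy-28 summed to 6.47 and 7.32 CPM at 0 Gy, 3.07 and 5.10 CPM at 200 Gy, and 19.9 and 24.0 CPM at 400 Gy. Here the libraries at 400 Gy lay above all others. The ratio of soluble counts to counts of these 25 genes, which does not depend on scaling, was 2.72 and 4.27 in the 0 Gy libraries, 1.18 and 1.36 in the 200 Gy libraries, and 0.423 and 0.367 in the 400 Gy libraries. Per 100 counts of gcy-12 and gcy-28 there were 14.6 and 19.6 soluble counts at 0 Gy, 7.10 and 16.9 soluble counts at 200 Gy, and 2.80 and 3.4 soluble counts at 400 Gy. The soluble genes are the shorter ones, with a median coding length of 2067 bases against 3336 bases for the 25, so these ratios also carry the length trend. The difference between the classes was not tested.

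After 200 Gy, against 0 Gy, 4 of the 14 tested genes fell and none rose, where 8.71% of all tested genes fell. The 4 were gcy-12 and gcy-28 of the receptor kind and gcy-32 and gcy-35 of the soluble kind. In 10 of the 14 both libraries at 200 Gy lay below both at 0 Gy, which was so in 29.9% of all tested genes. The median log2 fold change was -1.74 over the 14 genes and 0.10 over all tested genes, and -0.48 against 0.09 when length-corrected. With the length correction, 1 of the 14, gcy-32, fell, where 2.41% of all tested genes did. With the replicate number as a block, 10 fell, where 21.6% of all tested genes did. Leaving out the first or the second 0 Gy library, no gene of the whole table passed edgeR's test in this comparison, though unadjusted p-values lay under 0.05 for 7 and 5 members. Leaving out the first 400 Gy library, fewer members passed than in the main fit, and the share of all tested genes there is not given.

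After 400 Gy, against 0 Gy, none of the 14 passed the quasi-likelihood test, where 0.0416% of all tested genes rose and 0.00694% fell. An unadjusted p under 0.05 was found for 8 of them, and the DESeq2 test called 3. The share of all tested genes is not given for these counts, so they say nothing about the members in particular. The 2 classes lay on opposite sides of 0 in this comparison. All 8 receptor-type genes had a positive log2 fold change and all 6 soluble genes a negative one, though gcy-12, gcy-18, gcy-19 and gcy-28 turned negative when length-corrected. These signs are partly set by the filter on counts. The soluble gcy-32, gcy-33, gcy-34 and gcy-36 needed 0 Gy to be tested, and the receptor-type gcy-15, gcy-21 and gcy-22 needed 400 Gy. The untested soluble gene gcy-31 had 7 counts at 0 Gy and 21 counts at 400 Gy. Of the 14 tested genes, 6 receptor-type and 5 soluble ones had libraries that did not overlap, where 28.1% of all tested genes were higher and 31.1% lower without overlap. The medians were 1.30 for the receptor-type and -1.54 for the soluble genes, and 0.23 and -2.05 when length-corrected, beside -0.03 and -0.08 for all tested genes.

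More members passed in this comparison when the spread was estimated in other ways. With the replicate number as a block, 5 rose (gcy-11, gcy-15, gcy-21, gcy-22 and gcy-28) and 3 fell (gcy-32, gcy-36 and gcy-37), where 14.3% of all tested genes rose and 10.6% fell. In a fit of only the 4 libraries compared, gcy-15, gcy-21 and gcy-22 rose and gcy-32, gcy-36 and gcy-37 fell, where 10.3% of genes rose and 5.13% fell. Leaving out either 200 Gy library also let more members pass. Those fits left 1 library at 200 Gy, and no share of all tested genes is set beside them. With the length correction alone, gcy-21 rose, where 1.23% of all tested genes did. With the block and the length correction together, 2 members rose (gcy-15 and gcy-21) and 5 fell (gcy-32, gcy-33, gcy-35, gcy-36 and gcy-37), where 9.51% rose and 7.92% fell.

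Between the irradiated doses, 400 Gy against 200 Gy, 6 of the 14 rose and none fell, where 15% of all tested genes rose. These were gcy-11, gcy-12, gcy-15, gcy-18, gcy-21 and gcy-28, all receptor-type. Both libraries at 400 Gy lay above both at 200 Gy in 9 of the 14, and in 31.1% of all tested genes. The median log2 fold change was 1.87 over the 14 genes and -0.10 over all tested genes. Length-corrected, it was -0.06 and -0.08, and none of the 14 rose, where 2.07% of all tested genes did (1 member had an unadjusted p under 0.05). Without the first 400 Gy library fewer rose, and the share of all tested genes there is not given. This comparison shares the 400 Gy libraries with that against 0 Gy, and the 200 Gy libraries with the first comparison. A test of any difference among the 3 doses called 8 members (gcy-11, gcy-12, gcy-15, gcy-21, gcy-28, gcy-32, gcy-35 and gcy-36), where 30.1% of all tested genes passed. It called 13 with the block (62.1% of all tested genes) and 2 with the length correction (10.1%).

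**Figure D2:**
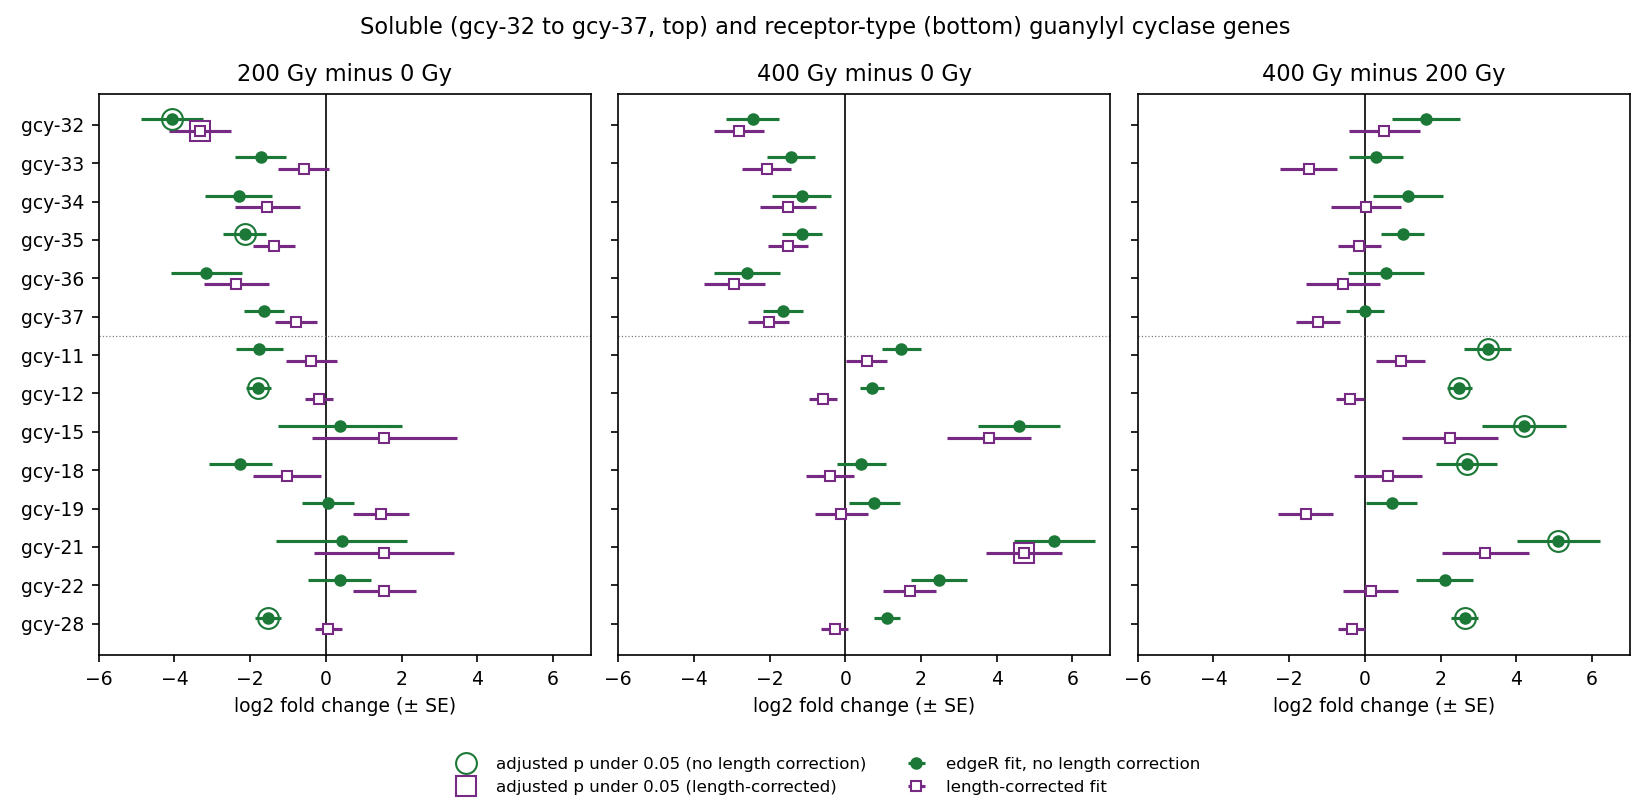
Log2 fold changes (horizontal axes, points, with the SE as bars) of the 14 tested genes in the 3 comparisons, from the edgeR fit (filled circles) and the length-corrected fit (open squares), with outer rings for an adjusted p under 0.05. At 400 Gy minus 0 Gy the 6 soluble genes above the dotted line lie left of 0 and, without the correction, the 8 receptor-type genes below it lie right of 0. With the correction 4 of the 8, gcy-12, gcy-18, gcy-19 and gcy-28, lie left of it.

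Members enter the test by reaching 10 counts, scaled to the median library total, in at least 2 libraries. Of the 14, gcy-12 and gcy-28 reached it in all 6 libraries. By contrast, gcy-15, gcy-21 and gcy-22 reached it at 400 Gy alone, and gcy-32 and gcy-36 at 0 Gy alone. Those 5 could only enter by being high at that dose. The genes gcy-33 and gcy-34 reached it in both 0 Gy libraries and in 1 at 400 Gy, so they too needed 0 Gy to enter. Counts and medians over the 14 thus describe these genes and support nothing about the family. Falls and rises of single genes that entered through a dose carry the same selection where that dose is compared.

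Among the soluble genes, gcy-35 and gcy-36 encode subunits of the oxygen sensor of the URX, AQR and PQR neurons, which drives avoidance of high oxygen. The gcy-35 gene lies on chromosome I:13325362-13333336 in the WBcel235 genome build. It had 4.18 and 9.27 CPM at 0 Gy, 1.26 and 1.73 CPM at 200 Gy, and 3.15 and 2.91 CPM at 400 Gy. Both irradiated doses lay below both 0 Gy libraries, and 200 Gy lay lowest. At 200 Gy against 0 Gy gcy-35 fell by 2.15 ± 0.57 on the log2 scale (edgeR adjusted p = 0.0425), and the length-corrected value was -1.36 ± 0.56 (adjusted p = 0.148). The call is close to the threshold and was lost with upper-quartile scaling (adjusted p = 0.0714), in the fit of only 4 libraries (0.0532) and without the first 400 Gy library (0.0606). Over all alternatives it ran from 0.0059 to 0.264. Its log2 fold change at 400 Gy against 0 Gy was -1.15 ± 0.53 (edgeR adjusted p = 0.241).

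The gene gcy-36 (chromosome X:15479241-15485616) had 3.44 and 5.29 CPM at 0 Gy, 0 and 0.867 CPM at 200 Gy, and 0.788 and 0.635 CPM at 400 Gy. All 4 irradiated libraries lay below both at 0 Gy. Its log2 fold change was -3.16 ± 0.93 at 200 Gy against 0 Gy (edgeR adjusted p = 0.0546, and 0.00694 with the replicate block). It was -2.59 ± 0.87 at 400 Gy against 0 Gy (adjusted p = 0.148, and 0.0213 with the block). Over all alternatives the adjusted p ran from 0.0033 to 0.249 at 200 Gy and from 0.00731 to 0.566 at 400 Gy. The length-corrected values, -2.36 ± 0.87 and -2.94 ± 0.81, were of similar size. As gcy-36 entered the test only through 0 Gy, all these values carry that selection.

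The other 3 soluble genes of the URX, AQR and PQR neurons are gcy-32, gcy-34 and gcy-37. The gene gcy-32 (chromosome V:13912170-13915400) had 2.13 and 5.77 CPM at 0 Gy, 0.139 and 0.289 CPM at 200 Gy, and 0.788 and 0.635 CPM at 400 Gy. The 3 doses did not overlap. It fell by 4.07 ± 0.82 on the log2 scale at 200 Gy against 0 Gy (edgeR adjusted p = 0.0255), and it was the 1 member whose fall also passed when length-corrected (-3.32 ± 0.82, adjusted p = 0.048). As gcy-32 entered the test only through 0 Gy, its falls from 0 Gy carry that selection. Its level at 200 Gy rests on 1 and 3 counts. Its log2 fold change at 400 Gy against 0 Gy was -2.45 ± 0.69 (adjusted p = 0.113, and 0.0168 with the replicate block), and length-corrected -2.81 ± 0.67 (adjusted p = 0.0588). Over all alternatives the adjusted p ran from 0.00134 to 0.189 at 200 Gy and from 0.0111 to 0.577 at 400 Gy.

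The gene gcy-37 (chromosome IV:2150793-2159113) had 4.67 and 5.94 CPM at 0 Gy, 1.12 and 2.21 CPM at 200 Gy, and 1.75 and 1.63 CPM at 400 Gy. Both irradiated doses lay below 0 Gy and overlapped each other. The log2 fold change against 0 Gy was -1.64 ± 0.53 both at 200 Gy and at 400 Gy, with edgeR adjusted p = 0.068 and 0.136. With the replicate block the adjusted p-values were 0.0122 and 0.0216, in ranges of 0.0122 to 0.369 and 0.0143 to 0.559 over all alternatives. Length-corrected, the values were -0.79 ± 0.54 and -2.03 ± 0.54.

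The gene gcy-34 (chromosome V:13383122-13385848) had 0.983 and 2.44 CPM at 0 Gy, 0.279 and 0.385 CPM at 200 Gy, and 0.350 and 1.18 CPM at 400 Gy. Only the 200 Gy libraries lay below both 0 Gy libraries, with a log2 fold change of -2.30 ± 0.88 (edgeR adjusted p = 0.0999, 0.0165 with the replicate block, and 0.0165 to 0.449 over all alternatives). Its exons share 59 bases with cpz-2 on the other strand, which had 1300 to 2608 counts per library. With the strand setting of the counting not given in the sources used here, reads of the shared bases cannot be assigned. The same holds for 74 exon bases of gcy-35 shared with casc-3, 61 of gcy-33 shared with C52E4.7, and 24 of gcy-28 shared with mrpl-19.

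Soluble cyclases of the BAG neurons, gcy-31 and gcy-33, act in the response to falling oxygen. The gene gcy-33 (chromosome V:11995868-12001776) had 2.13 and 2.03 CPM at 0 Gy, 0.558 and 0.674 CPM at 200 Gy, and 0.438 and 1.09 CPM at 400 Gy. All 4 irradiated libraries lay below both at 0 Gy. The log2 fold change was -1.73 ± 0.67 at 200 Gy against 0 Gy (edgeR adjusted p = 0.103, 0.0331 with the replicate block, and 0.0331 to 0.606 over all alternatives) and -1.44 ± 0.64 at 400 Gy against 0 Gy (adjusted p = 0.228). Its partner gcy-31 had its highest sum of counts at 400 Gy, with 1 and 6 counts at 0 Gy, 2 and 8 counts at 200 Gy, and 13 and 8 counts at 400 Gy, and was not tested. Of the 7 soluble genes, only gcy-31 had no irradiated dose at which both libraries lay below both at 0 Gy.

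**Figure D3:**
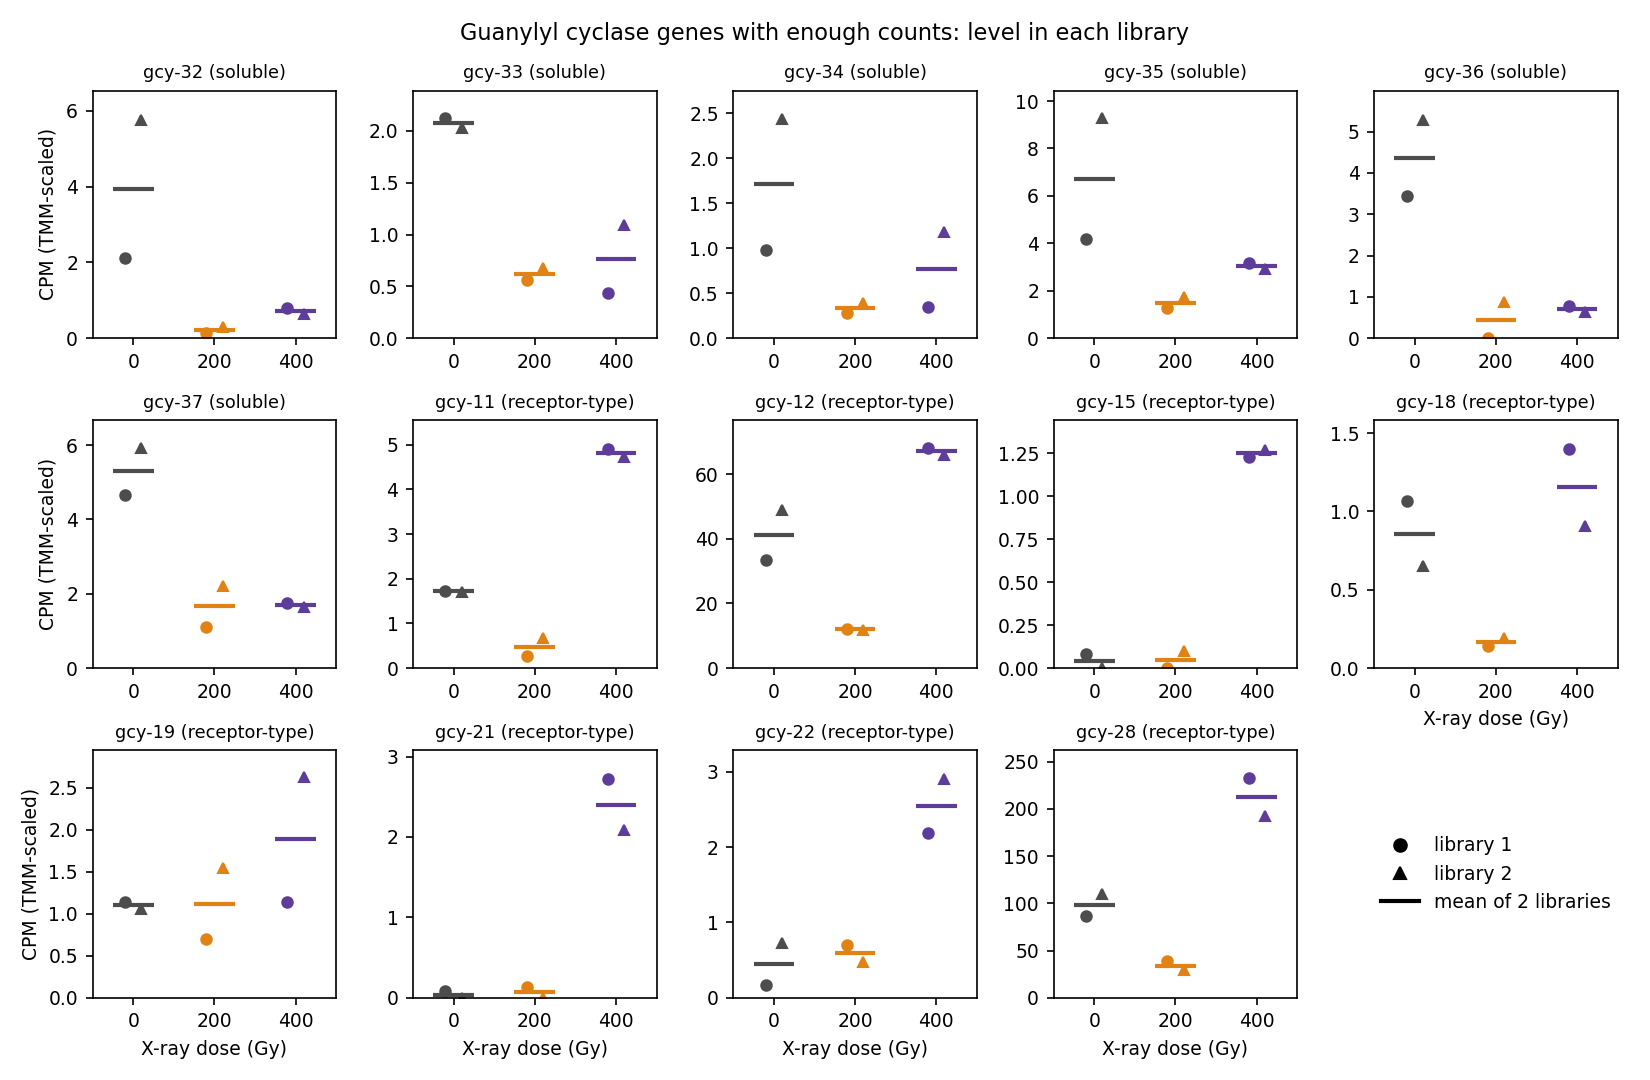
CPM (vertical axes, each from 0 and each with its own scale) of the 14 tested genes in each library against X-ray dose in Gy (horizontal axes), with circles for library 1, triangles for library 2 and lines for the mean of the 2 libraries. The 6 soluble genes have their highest mean at 0 Gy (gcy-35 at 4.18 and 9.27 CPM), and the 8 receptor-type genes at 400 Gy (gcy-28 at 233 and 193 CPM).

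Of the receptor kind, gcy-28 has the highest level. It encodes a cyclase found in many neurons, with known roles in olfactory behaviour and learning. The gene (chromosome I:4481238-4508207) had 87.0 and 110.2 CPM at 0 Gy, 38.9 and 29.2 CPM at 200 Gy, and 233 and 193 CPM at 400 Gy. The 3 doses did not overlap. It fell by 1.53 ± 0.35 on the log2 scale at 200 Gy against 0 Gy (edgeR adjusted p = 0.0297), and rose by 2.64 ± 0.36 at 400 Gy against 200 Gy (adjusted p = 0.00347). The fall was also lost without the second 200 Gy library (adjusted p = 0.0507) or the first 400 Gy library (0.0513), in a range of 0.00286 to 0.924 over all alternatives. The log2 fold change of gcy-28 at 400 Gy against 0 Gy was 1.11 ± 0.34 (adjusted p = 0.128, 0.0196 with the replicate block, and 0.0196 to 0.73 over all alternatives). Its deposited length, 5482 bases, is the longest of the family, but its longest annotated coding sequence has 3828 bases. With the deposited length, the length-corrected values were 0.07 ± 0.35, -0.35 ± 0.35 and -0.29 ± 0.35, in the same order of comparisons.

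The gene gcy-12, which acts with egl-4 in the control of body size, lies on chromosome II:5312120-5319083. It had 33.5 and 48.9 CPM at 0 Gy, 12.1 and 11.7 CPM at 200 Gy, and 68.1 and 66.0 CPM at 400 Gy. Again the 3 doses did not overlap, and the pairs at 200 and 400 Gy were close. It fell by 1.79 ± 0.32 on the log2 scale at 200 Gy against 0 Gy (edgeR adjusted p = 0.0229) and rose by 2.49 ± 0.33 at 400 Gy against 200 Gy (adjusted p = 0.00331). For 400 Gy against 0 Gy the value was 0.70 ± 0.31 (adjusted p = 0.227). Its coding length is 5040 bases, and the length-corrected values were -0.19 ± 0.37, -0.40 ± 0.37 and -0.59 ± 0.36.

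For gcy-28 and gcy-12 the sign at 400 Gy against 0 Gy thus depends on the fit. The negative length-corrected values did not pass (edgeR adjusted p = 0.73 and 0.439), so no fall is shown. The correction takes out the typical shift of genes of the same length. These values thus say that both genes moved about as far as other long genes did, with gcy-28 taken at 5482 bases. Whether the length trend arose in the worms or in the libraries cannot be told apart here.

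**Figure D4:**
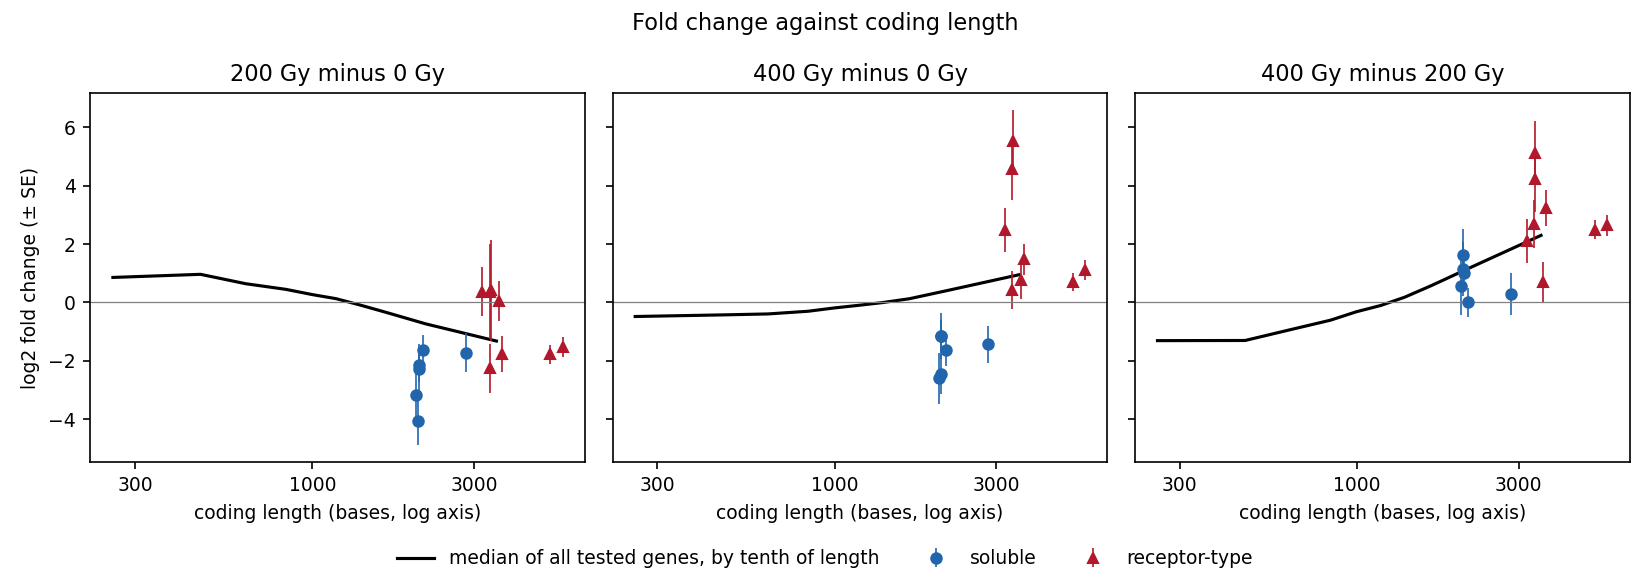
Log2 fold changes with SE (vertical axes) of the 6 soluble genes (circles) and the 8 receptor-type genes (triangles) against coding length in bases (horizontal log axes), with the median of all tested genes in 10 bins of length as a line. The line runs down to -1.32 at 200 Gy minus 0 Gy and up to 2.30 at 400 Gy minus 200 Gy at the long end. At 400 Gy minus 0 Gy the soluble genes lie under the line, and gcy-21 (5.52) and gcy-15 (4.59) lie above it.

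The receptor-type genes gcy-21 and gcy-15 are known from the ASG neurons, which taste the surroundings and take part in the dauer decision, and had almost no counts except at 400 Gy. The gene gcy-21 (chromosome II:2659670-2665022) had 1 and 0 counts at 0 Gy, 1 and 0 counts at 200 Gy, and 31 and 23 counts at 400 Gy. The scaled ratio of 400 Gy to 0 Gy was 59.0, with a 95% interval of 10.1 to 2373 that covers counting error only. It rose by 5.11 ± 1.10 on the log2 scale at 400 Gy against 200 Gy (edgeR adjusted p = 0.0116), a call lost without the first 400 Gy library (0.0614) and when length-corrected (3.18 ± 1.15, adjusted p = 0.121). The fitted value at 400 Gy against 0 Gy was 5.52 ± 1.07 (adjusted p = 0.0672, with 0.00102 to 0.499 over the alternatives). There it passed with the block (0.00567), with DESeq2 (0.013) and when length-corrected (4.72 ± 1.01, adjusted p = 0.0465). As gcy-21 entered the test only through 400 Gy, its rises at that dose carry that selection in every fit.

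The gene gcy-15 (chromosome II:3192420-3197066) had 1 and 0 counts at 0 Gy, 0 and 1 counts at 200 Gy, and 14 and 14 counts at 400 Gy. The scaled ratio of 400 Gy to 0 Gy was 30.6 (95% counting interval 5.06 to 1251). It rose by 4.22 ± 1.11 on the log2 scale at 400 Gy against 200 Gy (edgeR adjusted p = 0.0236), and length-corrected the value was 2.25 ± 1.28 (adjusted p = 0.292). The call was lost without either 400 Gy library (adjusted p = 0.0898 and 0.0698). Its adjusted p at 400 Gy against 0 Gy was 0.0902, and 0.0141 with the replicate block, in a range of 0.00869 to 0.528 over all alternatives. As gcy-15 too entered the test only through 400 Gy, its rises at that dose carry that selection.

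The gene gcy-22 encodes a cyclase that the ASER neuron, 1 of the salt-tasting ASE pair, needs for sensing many ions. On chromosome V:20820405-20825028, it had 0.164 and 0.732 CPM at 0 Gy, 0.697 and 0.481 CPM at 200 Gy, and 2.19 and 2.91 CPM at 400 Gy. Both 400 Gy libraries lay above all others, and the other doses overlapped. The log2 fold change was 2.48 ± 0.75 at 400 Gy against 0 Gy (edgeR adjusted p = 0.125, and 0.0191 with the replicate block). Against 200 Gy it was 2.11 ± 0.76 (adjusted p = 0.0658, and 0.0172 with the block). The ranges over all alternatives were 0.0191 to 0.479 and 0.0172 to 0.917. Length-corrected, the log2 fold changes were 1.70 ± 0.71 and 0.15 ± 0.73. As gcy-22 entered the test only through 400 Gy, all these values carry that selection. Its exons share 213 bases with T03D8.6 on the same strand, which had 256 to 945 counts per library, so how its reads were assigned is uncertain.

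The other 8 genes of the ASE salt-tasting neurons were not tested. Right-side genes were gcy-1, gcy-3, gcy-4 and gcy-5, and left-side genes gcy-6, gcy-7, gcy-14 and gcy-20. Of these, gcy-5 had 2 and 6 counts at 0 Gy, 0 and 4 counts at 200 Gy, and 6 and 18 counts at 400 Gy. For gcy-7 there were 0 and 3 counts at 0 Gy, 0 and 0 counts at 200 Gy, and 5 and 12 counts at 400 Gy. In scaled terms gcy-7 was 6.19-fold higher at 400 Gy than at 0 Gy (95% counting interval 1.79 to 33). Its exons share 69 bases with pho-6 on the opposite strand, which had 23 to 75 counts per library. Reads of these shared bases cannot be assigned. The other 6 had 0 to 5 counts in each library, and the exons of gcy-5 share 459 bases with other genes on the opposite strand. All 9 ASE genes, gcy-22 included, summed to 0.573 and 1.79 CPM at 0 Gy, 1.12 and 1.35 CPM at 200 Gy, and 3.68 and 6.72 CPM at 400 Gy. The highest sums were thus at 400 Gy, and those at 0 and 200 Gy overlapped.

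Thermosensing in the AFD neurons uses gcy-8, gcy-18 and gcy-23. The gene gcy-18 (chromosome IV:12860137-12865611) had 1.06 and 0.650 CPM at 0 Gy, 0.139 and 0.193 CPM at 200 Gy, and 1.40 and 0.908 CPM at 400 Gy. The levels at 400 and 0 Gy overlapped, and those at 200 Gy lay below both. It rose by 2.69 ± 0.82 on the log2 scale at 400 Gy against 200 Gy (edgeR adjusted p = 0.0394), a call lost without any 1 of the 6 libraries (adjusted p = 0.0687 to 0.187) and when length-corrected (0.62 ± 0.90). At 200 Gy against 0 Gy the value was -2.26 ± 0.83 (adjusted p = 0.0909, 0.0456 with the replicate block, and 0.0456 to 0.484 over all alternatives). The 3 genes together gave 1.39 and 1.14 CPM at 0 Gy, 0.418 and 0.674 CPM at 200 Gy, and 2.45 and 2.45 CPM at 400 Gy, without overlap between doses. The gcy-23 gene had 4 and 1 counts at 0 Gy, 2 and 0 counts at 200 Gy, and 5 and 15 counts at 400 Gy. For gcy-8, with 0 and 5 counts at 0 Gy, 0 and 5 counts at 200 Gy, and 7 and 2 counts at 400 Gy, all doses overlapped.

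Olfaction and light sensing rest on odr-1 and daf-11, which act together in the AWC and other amphid neurons. The daf-11 gene (chromosome V:11718672-11725652) had 0 and 1 counts at 0 Gy, 0 and 0 counts at 200 Gy, and 6 and 7 counts at 400 Gy. Its scaled level was 14.2-fold higher at 400 Gy than at 0 Gy (95% counting interval 2.13 to 604). The odr-1 gene (chromosome X:13544822-13550824) had 0 counts in all 4 libraries at 0 and 200 Gy, and 3 and 3 at 400 Gy. Set against a floor of 3 counts over the 2 libraries of a dose, odr-1 was 2.19-fold higher at 400 Gy than at 0 Gy. This takes the 400 Gy counts as exact, so it is no lower bound on the difference. The carbon dioxide receptor of the BAG neurons, gcy-9, had 2 and 1 counts at 0 Gy, 1 and 1 counts at 200 Gy, and 14 and 10 counts at 400 Gy. It was 8.74-fold higher at 400 Gy than at 0 Gy (95% counting interval 2.65 to 45.3). In a fit with no filter on low counts gcy-9 rose at 400 Gy against 200 Gy (edgeR adjusted p = 0.0484).

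Among the remaining receptor-type genes, gcy-11 (chromosome X:17046289-17055554) had 1.72 and 1.71 CPM at 0 Gy, 0.279 and 0.674 CPM at 200 Gy, and 4.90 and 4.72 CPM at 400 Gy. The 3 doses did not overlap. It rose by 3.25 ± 0.61 on the log2 scale at 400 Gy against 200 Gy (edgeR adjusted p = 0.00776), and the length-corrected value was 0.94 ± 0.65 (adjusted p = 0.383). Against 0 Gy its values were -1.76 ± 0.62 at 200 Gy and 1.48 ± 0.53 at 400 Gy (adjusted p = 0.0823 and 0.162, and 0.0294 and 0.0304 with the replicate block, the lowest of all alternatives, whose highest were 0.75 and 0.647). The gene gcy-19 (chromosome II:3251082-3259299) had 1.15 and 1.06 CPM at 0 Gy, 0.697 and 1.54 CPM at 200 Gy, and 1.14 and 2.63 CPM at 400 Gy. Its doses overlapped, and its largest uncorrected log2 fold change was 0.77 ± 0.67, at 400 Gy against 0 Gy (adjusted p = 0.515).

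Of the 6 untested members of this group, gcy-17 and gcy-2 had counts at 400 Gy alone. The gene gcy-17 had 0 counts at 0 and 200 Gy, and 6 and 5 at 400 Gy. Set against the floor of 3 counts over a dose, that is 4.01-fold higher at 400 Gy than at 0 Gy. As for odr-1, such values ignore the counting error of the higher dose. The gene gcy-2 had 3 and 4 counts at 400 Gy and 0 in the other libraries, 2.55-fold higher against the same floor. A different course was seen for gcy-29, with 7 and 9 counts at 0 Gy, 0 and 0 counts at 200 Gy, and 7 and 8 counts at 400 Gy. Set against that floor, gcy-29 was 3.82-fold lower at 200 Gy than at 0 Gy. In a fit with no filter on low counts it fell there (edgeR adjusted p = 0.0495), where 8.89% of all genes in that fit passed in either direction. In the same fit it rose at 400 Gy against 200 Gy (adjusted p = 0.0289). For gcy-25 there were 4 and 8 counts at 0 Gy, 0 and 1 counts at 200 Gy, and 1 and 7 counts at 400 Gy. For gcy-27 there were 5 and 1 counts at 0 Gy, 1 and 6 counts at 200 Gy, and 3 and 1 counts at 400 Gy. The gene gcy-13 had 1 count in the 6 libraries together. Several members are close relatives that lie side by side on chromosome II, gcy-1 with gcy-2 and gcy-3, and gcy-4 with gcy-5, and the assignment of reads that match more than 1 of them cannot be checked here.

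Downstream of the cyclases, the cGMP-gated channel genes were low and none changed. Of 6 listed channel genes 1, cng-1, was tested, and it passed in no comparison (edgeR adjusted p = 0.114 to 0.76). The channel subunit genes had few counts. The tax-4 gene had 6 and 12 counts at 0 Gy, 0 and 3 counts at 200 Gy, and 3 and 5 counts at 400 Gy. The tax-2 gene had 5 and 1 counts at 0 Gy, 1 and 3 counts at 200 Gy, and 3 and 5 counts at 400 Gy. The kinase gene egl-4 had 181 and 170 CPM at 0 Gy, 203 and 76.0 CPM at 200 Gy, and 435 and 313 CPM at 400 Gy. Both 400 Gy libraries of egl-4 lay above the rest, with a log2 fold change of 1.42 ± 0.49 at 400 Gy against 200 Gy (edgeR adjusted p = 0.0605). Neither egl-4 nor the other kinase gene, pkg-2, passed in any comparison.

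Phosphodiesterase genes, whose products break cyclic nucleotides down, had 5 of 6 members tested. None passed against 0 Gy at either dose, and 2 rose at 400 Gy against 200 Gy, where 15% of all tested genes did. The gene pde-2, for an enzyme that breaks down cGMP, had 92.9 and 71.1 CPM at 0 Gy, 41 and 28.9 CPM at 200 Gy, and 194 and 151 CPM at 400 Gy. Its doses did not overlap, as with gcy-28, and it rose by 2.31 ± 0.36 on the log2 scale at 400 Gy against 200 Gy (edgeR adjusted p = 0.00508). The cAMP phosphodiesterase gene pde-4 rose by 1.82 ± 0.37 in the same comparison (adjusted p = 0.00969). Length-corrected, the pde-2 and pde-4 values were 0.81 and 0.35, and neither passed. The genes pde-1, pde-3 and pde-6 passed in no comparison, and pde-5 had 1 to 3 counts per library.

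Of 8 genes for partners of the cyclases (a transport protein, G proteins and their regulators), 7 were tested and 1, grk-2, passed edgeR's test. It was the 1 of 7 lower at 200 Gy against 0 Gy, where 8.71% of all tested genes fell, and the DESeq2 test called 2 of the 7 there. This G protein-coupled receptor kinase gene, needed for chemosensation, fell by 1.49 ± 0.35 on the log2 scale at 200 Gy against 0 Gy (edgeR adjusted p = 0.0325) and rose by 1.32 ± 0.35 at 400 Gy against 200 Gy (adjusted p = 0.0239). Length-corrected, it was -0.70 and 0.14 and did not pass. The gene daf-25, whose product carries guanylyl cyclases into cilia, had 53.6 and 39.9 CPM at 0 Gy, 70.7 and 49.6 CPM at 200 Gy, and 42.2 and 33 CPM at 400 Gy. It passed in no comparison, and its 200 Gy libraries were the higher ones, though they overlapped those at 0 Gy. The G protein gene odr-3 had 2.46 and 5.77 CPM at 0 Gy, 0.558 and 2.02 CPM at 200 Gy, and 0.788 and 2.81 CPM at 400 Gy, and passed in none either.

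The 4 adenylyl cyclase genes, which make cAMP and are also long (median 3502.5 bases), showed the same order of doses as gcy-28 in their sum. It was 27.2 and 42.5 CPM at 0 Gy, 10.04 and 11.5 CPM at 200 Gy, and 43.2 and 57.1 CPM at 400 Gy. Of the 4, acy-1 and acy-3 fell at 200 Gy against 0 Gy, by 2.67 ± 0.51 and 1.62 ± 0.45 on the log2 scale (edgeR adjusted p = 0.0244 and 0.0477). Both rose at 400 Gy against 200 Gy, by 3.4 ± 0.52 and 2.23 ± 0.46 (adjusted p = 0.00479 and 0.0098). Over all tested genes 8.71% fell in the first of these comparisons and 15% rose in the second. None of the 4 passed at 400 Gy against 0 Gy, and none passed in any comparison when length-corrected. Beside these counts of 0 at 400 Gy against 0 Gy, an unadjusted p under 0.05 in edgeR was found for 1 phosphodiesterase gene, and for no channel, kinase, partner or adenylyl cyclase gene, and DESeq2 called none of them. In the other comparisons with a count of 0, DESeq2 called 2 phosphodiesterase genes at 200 Gy against 0 Gy and 1 kinase gene at 400 Gy against 200 Gy.

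Markers of neurons also differed between doses. Of 31 tested genes of ciliated sensory neurons (39 found of 40 written), 5 fell at 200 Gy against 0 Gy, where 8.71% of all tested genes did, and 7 rose at 400 Gy against 200 Gy, where 15% did. By edgeR's test none passed at 400 Gy against 0 Gy (3 with an unadjusted p under 0.05, 1 by DESeq2). Length-corrected, none of the 31 fell at 200 Gy against 0 Gy, and at 400 Gy against 200 Gy none rose and 1 fell, where 2.91% of all tested genes fell. Their summed level was 113 and 149 CPM at 0 Gy, 66.4 and 73.1 CPM at 200 Gy, and 136 and 151 CPM at 400 Gy, and no marker was at 0 in all libraries. Of the 20 pan-neuronal marker genes, all tested, 7 fell and 1 rose at 200 Gy against 0 Gy, and 9 rose and 2 fell at 400 Gy against 200 Gy. Over all tested genes 8.71% fell and 7.03% rose in the first comparison, and 15% rose and 16.2% fell in the second. Length-corrected, 1 of the 20 fell and none rose in each of them. Their summed level overlapped between all doses, at 958 and 1110 CPM at 0 Gy, 805 and 964 CPM at 200 Gy, and 944 and 1028 CPM at 400 Gy. Markers of other tissues differed too. Summed pharynx markers were at 37.4 and 36.3 CPM at 0 Gy, 61.9 and 116 CPM at 200 Gy, and 251 and 239 CPM at 400 Gy, and body wall muscle markers at 2600 and 3725 CPM, 8506 and 6128 CPM, and 9538 and 9601 CPM at the same doses. Within the muscle sum tni-1 went the other way, from 70.8 and 107 CPM at 0 Gy to 28.6 and 51.6 CPM at 400 Gy. At 200 Gy against 0 Gy, 3 of the 10 muscle markers rose, where 7.03% of all tested genes did. There 1, unc-22, fell by 2.54 ± 0.59 on the log2 scale (edgeR adjusted p = 0.0324), where 8.71% did. The values of unc-89, tni-1 and myo-3 were also negative there (-1.28, -1.22 and -0.91). At 0, 200 and 400 Gy in turn, sperm markers summed to 36.4 and 29.9 CPM, 62.1 and 217 CPM, and 106 and 224 CPM. Hypodermis markers summed to 1391 and 1496 CPM, 4067 and 3736 CPM, and 2570 and 2108 CPM. Yet 4 of the 10 fell and 1 rose at 200 Gy against 0 Gy, where 8.71% of all tested genes fell and 7.03% rose. Most of the sum at 200 Gy was the 1 that rose, col-19. It had 566 and 714 CPM at 0 Gy, 3742 and 3444 CPM at 200 Gy, and 2376 and 1619 CPM at 400 Gy. The median log2 fold change of the 10 at 200 Gy against 0 Gy was -1.71. Sums of intestine and of germline markers overlapped between all doses. The part of all these markers in the results for the guanylyl cyclase genes was not tested. The ciliated neuron markers had a median log2 fold change at 400 Gy against 0 Gy of -0.56 (-1.04 length-corrected), between the medians of the soluble (-1.54) and the receptor-type (1.30) genes.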

How the data were processed

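The deposited table gives, for each gene and library, raw read counts, RPKM values made by the authors, a length and a position. The submitters' processing notes name the WBcel235 build, TopHat2 2.0.13 and bcl2fastq. Not given in the sources used here are the counting tool, annotation release, strand setting and filters. Deposited RPKM equals the count over the length and the library total (within 0.000505%), so tests used the counts. Of all lengths 91.7% are multiples of 3, hence "coding length". For gcy-28 the deposited length of 5482 bases exceeds its longest annotated coding sequence of 3828 bases. Its RPKM and length-corrected values rest on the deposited length. Of the 34 genes, 33 matched an identifier (gcy-2 did not), and 14 share exon bases with another gene in the annotation.

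Tests used edgeR 4.0.16 in R 4.3.3 (filterByExpr, TMM with factors from 0.751 to 1.24, 1 quasi-likelihood fit of dose over 6 libraries, 3 residual degrees of freedom, Benjamini-Hochberg over 14417 genes, threshold 0.05). The common biological coefficient of variation was 35.1%. The SE is the log2 fold change over the square root of its F. The length correction used offsets from a loess curve (span 0.3) of each library's log2 deviation on log2 coding length. Linear slopes of this deviation were 0.069 and 0.052 in the 0 Gy libraries, -0.28 and -0.53 in the 200 Gy libraries, and 0.42 and 0.28 in the 400 Gy libraries. Steps were tested on simulated counts. Libraries of 1 dose differed beyond counting noise (chi-square over its degrees of freedom 62.9 to 118), so none was a copy. Ribosomal RNA took 0.696% to 9.26% of a library.

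The labels number the libraries of each dose 1 and 2 without saying what a number marks. Differences between libraries 1 and 2 correlated across genes between doses (Pearson 0.60 for 400 and 200 Gy, 0.37 for 400 and 0 Gy, 0.48 for 200 and 0 Gy). Libraries of equal number may therefore share something, but what it is cannot be told from the labels. The main fit has no replicate block, and the block is given where it changes a call. Other alternatives were DESeq2 size factors, upper-quartile scaling, DESeq2 1.42.0, other filters, only the 4 libraries compared, ribosomal RNA genes left out, each library left out, and thresholds of 0.01 and 0.1. Every gene matching the naming rule is reported, tested ones by library. From the pathway lists, genes past the threshold and a few set by name are given. Members and lists were chosen with earlier results of these data known. Counting intervals are exact Poisson ratios at 95%. No sequences are printed.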

Additional observations from a re-analysis of the deposited data

How the results depend on the processing

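Counts of family members past the threshold moved with the fit, and so did the share of all tested genes. The share lower at 200 Gy against 0 Gy was 8.71%, and 21.6% with the replicate block and 2.41% with the length correction. Without such a share beside them, the counts say nothing about the members in particular. At 200 Gy against 0 Gy there were 4, all lower, and 10 with the replicate block, 1 with the length correction, 0 and 9 at thresholds of 0.01 and 0.1, and 0 to 5 with 1 library left out. At 400 Gy against 0 Gy there were 0, and 1 with DESeq2 size factors, 1 with no filter on low counts, 3 with the DESeq2 test, 6 with only the 4 libraries compared, 8 with the replicate block, 1 with the length correction, 7 with both together, 2 at a threshold of 0.1, and 0 to 8 with 1 library left out. At 400 Gy against 200 Gy there were 6, and 0 with the length correction, 1 with the replicate block and the length correction, 3 at a threshold of 0.01, and 3 to 8 with 1 library left out. For any difference among the 3 doses there were 8, and 13 with the replicate block, 2 with the length correction, 2 at a threshold of 0.01, and 2 to 13 with 1 library left out (2 without the second 0 Gy library, 4 without the first 0 Gy or the first 400 Gy library, 5 without the second 400 Gy library and 13 without the first 200 Gy library). The cause of these differences was not tested.

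Log2 fold changes of some genes changed sign. With the length correction alone, at 200 Gy against 0 Gy gcy-28 was 0.0652. At 400 Gy against 0 Gy gcy-12 was -0.59, gcy-18 -0.41, gcy-19 -0.10 and gcy-28 -0.29. At 400 Gy against 200 Gy gcy-12 was -0.40, gcy-19 -1.56, gcy-28 -0.35, gcy-33 -1.49, gcy-35 -0.15 and gcy-36 -0.57. With the replicate block as well, the same genes were 0.0641 (200 Gy against 0 Gy), -0.57, -0.40, -0.21 and -0.28 (400 Gy against 0 Gy), and -0.36, -1.55, -0.34, -1.51, -0.0768 and -0.47 (400 Gy against 200 Gy), in the order given. Values near 0 also changed sign. At 200 Gy against 0 Gy gcy-19, 0.06, was -0.0017 with DESeq2 size factors, -0.0118 with the DESeq2 test, -0.0194 with only the 4 libraries, -0.0277 with the replicate block and -0.0829 without ribosomal RNA genes. At 400 Gy against 200 Gy gcy-37, near 0, was 0.10 with DESeq2 size factors and with the DESeq2 test, 0.0169 with no filter, 0.0036 with only the 4 libraries, 0.0327 with the replicate block and 0.16 without ribosomal RNA genes.

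With 1 library left out, signs changed at 200 Gy against 0 Gy for gcy-15 (-2.19 to 2.5), gcy-19 (-0.75 to 0.29), gcy-21 (-2.27 to 2.56) and gcy-22 (-0.32 to 1.73), and at 400 Gy against 200 Gy for gcy-33 (-0.30 to 0.80), gcy-36 (-0.0695 to 6.0) and gcy-37 (-0.17 to 0.72). Where a left-out library leaves a dose with 1, that library is assumed to vary like the others. In the 20 untested genes, with at most 18 counts in a library, all but large differences were not detectable at this depth.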

Other observations

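Transcription factors that set the identity of sensory neurons were also counted, since many guanylyl cyclase genes are expressed in such neurons. Of 13 listed factor genes 9 were tested. At 200 Gy against 0 Gy, 3 fell and none rose, where 8.71% of all tested genes fell. These were ceh-14, of the AFD and other neurons, by 2.16 ± 0.50 on the log2 scale (edgeR adjusted p = 0.0311), nsy-7, of the AWC pair, by 1.52 ± 0.40 (adjusted p = 0.0421), and ahr-1, which acts in the URX, AQR and PQR neurons, by 4.09 ± 1.14 (adjusted p = 0.0473). Length-corrected, ceh-14 and nsy-7 still passed (adjusted p = 0.0349 and 0.0438) and ahr-1 did not (0.0729). The gene ahr-1 had 21 and 33 counts at 0 Gy, 2 and 0 counts at 200 Gy, and 5 and 16 counts at 400 Gy. None of the 9 passed edgeR's test at 400 Gy against 0 Gy (1 with an unadjusted p under 0.05, 0 by DESeq2), and at 400 Gy against 200 Gy egl-13, which acts in the BAG neurons, rose by 1.66 ± 0.47 (adjusted p = 0.0298), which did not pass when length-corrected (1.37, adjusted p = 0.0984).

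Among the ciliated sensory neuron markers, at 200 Gy against 0 Gy che-3, the dynein motor of cilia, fell by 4.12 and osm-1, an intraflagellar transport protein gene, by 2.08 on the log2 scale. Both rose at 400 Gy against 200 Gy, by 5.15 and 3.17. Length-corrected, these rises were 1.10 and 0.31 and did not pass (adjusted p = 0.411 and 0.707), and none of the 31 passed at 200 Gy against 0 Gy. The coding lengths of che-3 and osm-1, 12516 and 5214 bases, are the longest of the 31. Without the correction, the 31 ran from -5.06 (che-11) to 0.06 (bbs-5) at 200 Gy against 0 Gy, around a median of -1.22. At 400 Gy against 200 Gy they ran from -0.80 (bbs-5) to 5.15 (che-3), around a median of 1.30.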
